A study of Oryza sativa with 4 samples.

Results

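Transcripts of 9 rice genes of chloroplast development and photosynthesis were followed in young panicles that carry a mutation in EMF2B and in wild-type (WT) panicles. The genes were picked by locus identifier for their function, with earlier results of these data known. All 9 were among the 45027 loci of the deposited count table. They are GLK1 (LOC_Os06g24070), GLK2 (LOC_Os01g13740), CAB1R (LOC_Os09g17740), CAB2R (LOC_Os01g41710), LHCB5 (LOC_Os11g13890), PsbS (LOC_Os01g64960), CHLH (LOC_Os03g20700), PORB (LOC_Os10g35370) and GLO1 (LOC_Os03g57220).

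Panicles of the mutant genotype emf2b-1 and of WT were compared by RNA-seq, with 2 libraries each, named here by the barcodes in the column names. Both genotypes are labelled as cultivar Dongjin, and the panicles as inflorescence stage 7, 0.3 to 1.5 cm long, from greenhouse plants in natural light, with day temperatures of 30°C and night temperatures of 25°C. EMF2B encodes a subunit of Polycomb repressive complex 2, which marks chromatin of silenced genes with H3K27me3. The sources used here do not state whether the libraries came from separate plants or pools, so p-values measure only the spread between these libraries, which may be technical.

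In leaves, GOLDEN2-LIKE (GLK) transcription factors promote the building of chloroplasts, and they activate genes for chlorophyll synthesis and for the light-harvesting antenna. The antenna proteins bind chlorophyll and pass light energy to the photosystems, while PsbS allows excess energy to be released as heat. Glycolate oxidase acts downstream, in peroxisomes, where it oxidises the glycolate made when Rubisco fixes oxygen in place of carbon dioxide.

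Counted reads came to 12932305 and 16926873 in emf2b GAGT and TTAG, against 25382519 and 32087683 in WT ACCC and CGTA. EMF2B (LOC_Os09g13630) itself had counts-per-million (CPM) values of 9.90 and 11.9 in emf2b, against 37.1 and 38.8 CPM in WT (edgeR log2 fold change -1.83 ± 0.21 SE, adjusted p = 0.00661). The inflorescence meristem gene OSH1 was measured in both genotypes, at 25.1 and 29.4 CPM in emf2b panicles and at 26.2 and 25.9 CPM in WT panicles. The 8 panicle markers summed to 485 and 493 CPM in emf2b and to 366 and 362 CPM in WT. Of these, LAX1 and LOC_Os06g45460 had too few reads to be tested, and the second had no read in WT CGTA; none of the other 6 passed the test. The 3 measured endosperm markers summed to 9.05 and 9.22 CPM in emf2b and to 7.41 and 8.66 CPM in WT, none of them at 0 in a library. The 4 markers of abscisic acid (ABA) and stress response summed to 1198 and 136 CPM in emf2b GAGT and TTAG. In WT they summed to 31.4 and 36.3 CPM, and none of them was at 0 in a library. Both emf2b libraries lay above both WT libraries for all 4, and 3 passed the test, higher in emf2b, beside 13.5% of all tested loci. The emf2b libraries also differed from each other, with LOC_Os11g26790 and SNAC2 at 798 and 375 CPM in GAGT and at 78.2 and 49.1 CPM in TTAG. In bulk tissue, fewer cells of a type cannot be told apart from less RNA per cell.

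Of the 9 genes, 8 had enough reads to be tested, and PsbS did not. GLO1 rose and LHCB5 fell in emf2b, while GLK1, GLK2, CAB1R, CAB2R, CHLH and PORB did not pass the test (quasi-likelihood test of edgeR, with a threshold of 0.05 on p adjusted by Benjamini-Hochberg over all 22615 tested loci). Over all tested loci, 13.5% were called higher and 2.21% lower in emf2b, so 1 call in each direction among 8 genes is a count too small to set them apart from other loci. Both emf2b libraries lay above both WT libraries for 1 of the 8 genes, against 32.5% of all tested loci, and below both for 2 of the 8, against 24.6%. The median log2 fold change of the 8 genes was -0.04, beside 0.01 over all tested loci. All changes are given as emf2b over WT, and CPM is not corrected for gene length, so levels are compared within a gene and not between genes.

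**Figure D1:**
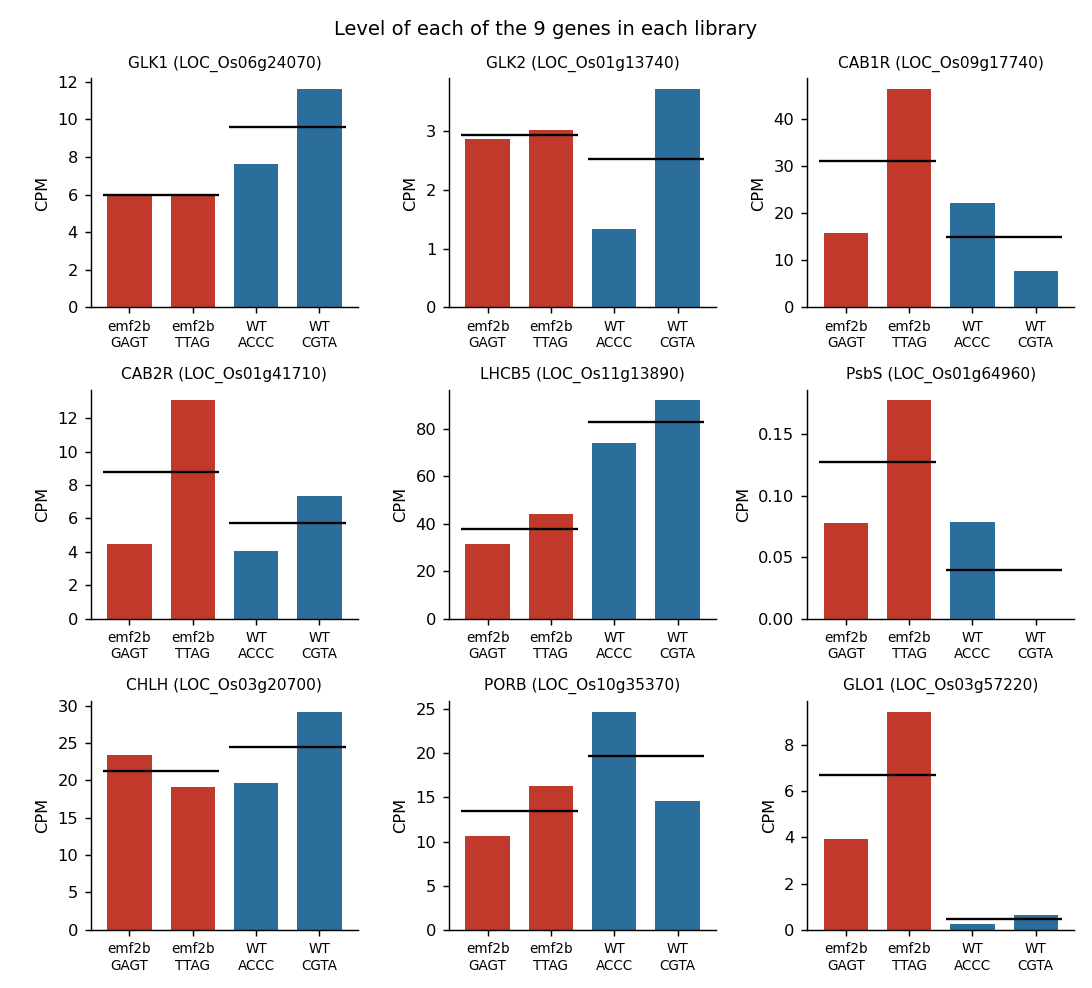
CPM (vertical axis, from 0, scaled for each gene) of the 9 genes in each of the 4 libraries; bars are single libraries, red for emf2b and blue for WT, and black lines are the means of 2 libraries. The emf2b and WT libraries do not overlap for GLO1, LHCB5 and GLK1, and for CAB1R the emf2b libraries differ from each other by more than the genotype means do.

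The transcription factor GLK1 stood at 5.95 and 5.97 CPM in emf2b GAGT and TTAG, against 7.64 and 11.6 CPM in WT ACCC and CGTA. Both emf2b libraries were nearly equal and lay below both WT libraries. Means were 5.96 ± 0.01 CPM over the 2 emf2b libraries and 9.62 ± 2.79 CPM over the 2 WT libraries (± SD), a log2 fold change of -0.73 ± 0.31 (SE) that did not pass the test (edgeR adjusted p = 0.175). Its 95% interval ran from -1.45 to 0.00, and no alternative setting brought it past the threshold.

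Its paralog GLK2 had 2.86 and 3.01 CPM in emf2b and 1.34 and 3.71 CPM in WT. The emf2b libraries lay between the WT libraries, which differed 2.77-fold from each other (95% exact counting interval 1.88 to 4.18). The log2 fold change was 0.16 ± 0.52 (SE; edgeR adjusted p = 0.878), with a 95% interval of -1.07 to 1.39. It took the opposite sign when WT ACCC was left out (-0.38).

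Because GLK1 and GLK2 encode the same class of regulator, their reads were also set against each other within each library. GLK1 supplied 67.5% and 66.4% of the reads of the pair in emf2b GAGT and TTAG (exact 95% intervals 58.1 to 76.0% and 58.3 to 73.9%). In WT it supplied 85.1% in ACCC and 75.8% in CGTA (79.8 to 89.4% and 71.7 to 79.5%). The share was lower in both emf2b libraries than in both WT libraries, but the intervals of emf2b and WT CGTA overlap, and 2 libraries against 2 allow no exact permutation p under 0.333. Such shares move with the length of each transcript, so they are compared between libraries only.

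CHLH encodes the large subunit of magnesium chelatase, which sends the common porphyrin precursor into chlorophyll synthesis. It stood at 23.4 and 19.1 CPM in emf2b panicles and at 19.7 and 29.2 CPM in WT panicles, and the groups overlapped. The log2 fold change was -0.23 ± 0.25 (SE; edgeR adjusted p = 0.601), with a 95% interval of -0.83 to 0.36. Without WT CGTA it was 0.06, so its sign rested on that library.

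PORB encodes a protochlorophyllide oxidoreductase, the enzyme of the light-dependent step of chlorophyll synthesis. It stood at 10.6 and 16.3 CPM in emf2b panicles and at 24.7 and 14.6 CPM in WT panicles. WT ACCC was the highest library, and emf2b TTAG lay above WT CGTA. The log2 fold change was -0.58 ± 0.33 (SE; edgeR adjusted p = 0.303), with a 95% interval of -1.36 to 0.20, and it was -0.16 without WT ACCC.

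CAB1R encodes a chlorophyll a/b-binding protein of the major antenna of photosystem II. It was at 15.7 and 46.2 CPM in emf2b GAGT and TTAG, against 22.2 and 7.76 CPM in WT ACCC and CGTA. The highest and the lowest library belonged to different genotypes, but the remaining libraries crossed over. Libraries of 1 genotype differed 2.94-fold in emf2b (95% exact counting interval 2.52 to 3.45) and 2.86-fold in WT (2.46 to 3.33). These within-genotype ratios were larger than those of 94.4% of all tested loci in emf2b and 92.2% in WT. Both counting intervals lie above 1. Means of 30.9 ± 21.6 CPM over the 2 emf2b libraries and 14.97 ± 10.2 CPM over the 2 WT libraries (± SD) gave a log2 fold change of 1.01 ± 0.58 (SE) that did not pass the test (edgeR adjusted p = 0.312). It was 0.06 without emf2b TTAG and 1.93 without WT ACCC.

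CAB2R, which encodes a protein of the same kind, stood at 4.48 and 13.1 CPM in emf2b panicles and at 4.06 and 7.35 CPM in WT panicles. As for CAB1R, emf2b TTAG was the highest library and stood 2.91 times above emf2b GAGT (2.17 to 3.96). Unlike CAB1R, it was higher in WT CGTA than in WT ACCC, by 1.81 times (1.43 to 2.31). The log2 fold change was 0.59 ± 0.50 (SE; edgeR adjusted p = 0.493) and became -0.35 without emf2b TTAG.

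CAB1R supplied 77.8% and 78.0% of the reads of this pair in emf2b GAGT and TTAG, against 84.5% in WT ACCC and 51.3% in WT CGTA (exact 95% intervals 72.2 to 82.7%, 75.3 to 80.5%, 81.6 to 87.2% and 46.8 to 55.9%). The pair thus kept its proportions between the emf2b libraries while its summed level was higher in TTAG, and in WT CGTA the share was lowest, with CAB1R lower and CAB2R higher than in WT ACCC. Antenna genes of this kind are close copies, and the sources used here do not say how reads that match several copies were counted, so the division of reads between CAB1R and CAB2R is uncertain.

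LHCB5 encodes CP26, a minor antenna protein that sits between the major antenna and the core of photosystem II. It fell to 31.6 and 44.1 CPM in emf2b GAGT and TTAG, against 74.0 and 91.9 CPM in WT ACCC and CGTA. All emf2b values lay below all WT values, and the gap between the genotypes was wider than that within either one. Means were 37.8 ± 8.80 CPM over the 2 emf2b libraries and 83.0 ± 12.7 CPM over the 2 WT libraries (± SD), a log2 fold change of -1.17 ± 0.22 (SE; edgeR adjusted p = 0.0150; 95% interval -1.67 to -0.66), or 2.25-fold lower in emf2b. The value rests on 409 and 746 reads in emf2b and on 1879 and 2950 in WT, so counting error is small beside the spread between libraries. The call ended without either WT library (-1.33 without ACCC and -1.03 without CGTA), as did most calls over all loci: 189 and 20 loci were called in those 2 fits, against 3556 with all libraries. The LHCB5 call also ended once background reads, taken as the 99th percentile in emf2b at loci without a WT read, were subtracted from emf2b counts (-1.005, edgeR adjusted p = 0.0623). The reads subtracted were 10 in GAGT and 22 in TTAG, few beside those of LHCB5. Subtraction can only lower its emf2b reads, whereas its change moved towards 0 in that fit, where libraries were scaled anew. The ended call is thus no measure of background reads in LHCB5. Calls were fewer over all loci in that fit too, 765 of 19829 tested, against 3556 of 22615.

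PsbS, the photoprotective protein gene of photosystem II, had 1 and 3 reads in emf2b and 2 and 0 reads in WT. These counts are at or under 3 reads in every library, which corresponds to 0.232 and 0.177 CPM in emf2b GAGT and TTAG and to 0.118 and 0.0935 CPM in WT ACCC and CGTA. A difference in PsbS was not detectable at this depth, and no fold is given.

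GLO1, a glycolate oxidase gene, showed the largest change of the 8 tested genes. It had 51 and 160 reads in emf2b GAGT and TTAG, against 6 and 21 reads in the more deeply sequenced WT libraries ACCC and CGTA. These are 3.94 and 9.45 CPM in emf2b and 0.236 and 0.654 CPM in WT, so the lower emf2b library was above the higher WT library, although libraries of 1 genotype also differed, 2.40-fold in emf2b and 2.77-fold in WT. Means were 6.70 ± 3.90 CPM over the 2 emf2b libraries and 0.445 ± 0.296 CPM over the 2 WT libraries (± SD), a log2 fold change of 3.82 ± 0.62 (SE; edgeR adjusted p = 0.0118; 95% interval 2.37 to 5.27), or 14.1-fold higher in emf2b. The call was lost without WT ACCC (3.31, edgeR adjusted p = 0.0906) and without WT CGTA (4.73, edgeR adjusted p = 0.113), in the fits where nearly all calls over all loci were lost.

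Calls of this kind were common among tested loci with few WT reads. Of 4888 tested loci with a WT mean under 1 CPM, 49.7% were called higher in emf2b. The low-count filter asks for enough reads in at least 2 libraries, whatever their genotype, and GLO1 would not have met it through its WT libraries alone. Loci with few WT reads can thus be tested because they are high in emf2b, so 49.7% is not a rate for all weakly read loci. GLO1 ranked 1487 among all tested loci, counted from the highest log2 fold change. At 9379 loci with no WT read, the 99th percentile of reads was 10 in emf2b GAGT and 22 in emf2b TTAG, well under the 51 and 160 reads of GLO1. With emf2b counts lowered by those values, a setting chosen after seeing the data, the GLO1 change was 3.79 ± 0.69 SE (edgeR adjusted p = 0.0424). Libraries were scaled anew in that fit, and LHCB5 moved upwards in it, from -1.17 to -1.005. The GLO1 value therefore cannot show whether its rise stands clear of background reads.

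The other glycolate oxidase genes of the family, GLO3, GLO4 and GLO5, were not called. GLO3 stood at 9.98 and 14.3 CPM in emf2b panicles and at 20.6 and 19.2 CPM in WT panicles (log2 fold change -0.75 ± 0.25 SE, edgeR adjusted p = 0.0881). GLO4 stood at 2.55 and 2.95 CPM in emf2b panicles and at 1.93 and 1.90 CPM in WT panicles (0.49 ± 0.39 SE, edgeR adjusted p = 0.466). GLO5 stood at 25.4 and 28.9 CPM in emf2b panicles and at 27.1 and 29.3 CPM in WT panicles (-0.09 ± 0.19 SE, edgeR adjusted p = 0.810). The libraries of the genotypes overlapped for GLO5, while GLO3 was lower and GLO4 higher in both emf2b libraries. Reads common to these related genes may have been divided among them when counted.

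The make-up of the family was also described within each library. GLO1 supplied 9.43% of the reads of the 4 genes in emf2b GAGT and 16.99% in emf2b TTAG (exact 95% intervals 7.10 to 12.2% and 14.6 to 19.5%). In WT it supplied 0.474% in ACCC and 1.28% in CGTA (0.174 to 1.03% and 0.796 to 1.95%). No interval of an emf2b library reached one of a WT library, but the intervals of the 2 emf2b libraries did not overlap each other either. These intervals cover counting error only, and 2 libraries against 2 allow no exact permutation p under 0.333. The difference in share between the genotypes was not tested.

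**Figure D2:**
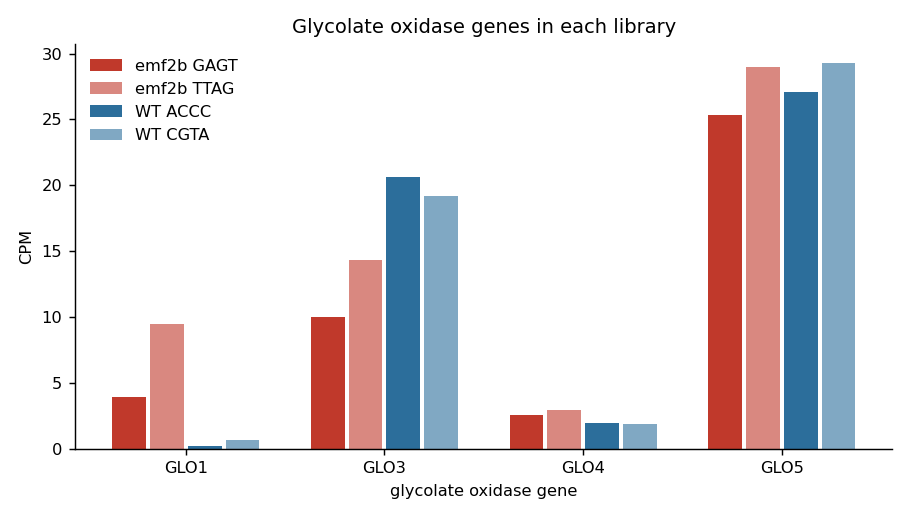
CPM (vertical axis) of the 4 glycolate oxidase genes GLO1, GLO3, GLO4 and GLO5 in each library; each bar is 1 library, red shades for emf2b and blue shades for WT. GLO1 bars reach 3.94 and 9.45 CPM in emf2b and stay under 1 CPM in WT, whereas GLO3 bars are lower in emf2b and GLO5 bars overlap between the genotypes.

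Of the 8 tested genes, 7 were higher in emf2b TTAG than in emf2b GAGT, beside 59.5% of all tested loci. The 95% exact counting interval of the ratio of TTAG to GAGT lay above 1 for 5 of the 8. For GLK1 (0.74 to 1.37) and GLK2 (0.68 to 1.65) it included 1. CHLH was the exception, with 1.23 times more in GAGT (95% exact counting interval 1.05 to 1.44). The ratio between the emf2b libraries was wide beside other loci for CAB1R, CAB2R and GLO1, where it exceeded that of 94.4%, 94.1% and 90.3% of tested loci. It was ordinary for PORB (70.1%), LHCB5 (61.2%) and CHLH (44.4%), and small for GLK2 (11.4%) and GLK1 (0.119%). The summed level of all 9 genes was 98.7 and 157 CPM in emf2b GAGT and TTAG, against 154 and 167 CPM in WT ACCC and CGTA. CAB1R alone gave 15.7 and 46.2 CPM of the emf2b sums. The library GAGT, lowest for this sum, was also the one with 1198 CPM of the ABA and stress markers. Most of the related lists described below did not follow that order. The antenna list summed to 449 and 322 CPM in emf2b GAGT and TTAG, and the photosystem list to 313 and 259 CPM. Chlorophyll synthesis (346 and 331 CPM), chlorophyll breakdown (115 and 90.4 CPM) and chloroplast biogenesis (318 and 311 CPM) were also higher in GAGT. All the lists together summed to 1816 and 1605 CPM. The Rubisco and Calvin cycle list (158 and 161 CPM) and the photorespiration list (117 and 131 CPM) were lower in GAGT. In the antenna sums, LOC_Os08g33820 alone gave 265 and 144 CPM. Most other tested antenna loci were lower in GAGT, such as LOC_Os07g37240 (30.5 and 42.2 CPM), while LOC_Os07g38960 and LOC_Os02g10390 were higher. Whether the stress markers have a part in any of these values was not tested. GLO1 and LHCB5 remained called without emf2b GAGT (log2 fold changes 4.24 and -1.01) and without emf2b TTAG (3.08 and -1.39).

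**Figure D3:**
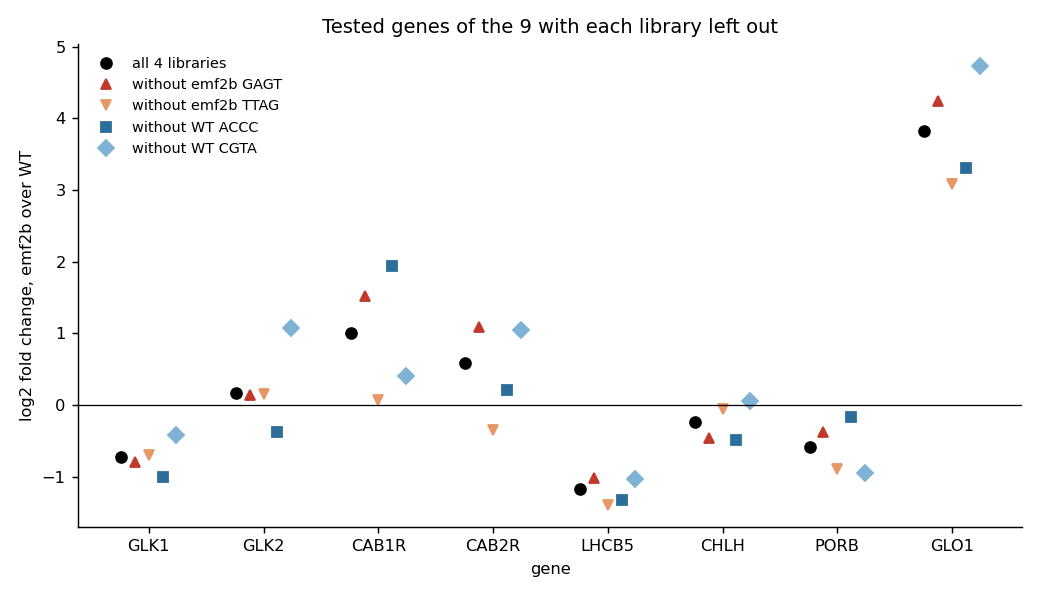
Log2 fold change of emf2b over WT (vertical axis) for each of the 8 tested genes with all 4 libraries (black) and with 1 library left out (colours and shapes). The points of GLO1 lie between 3.08 and 4.73 and those of LHCB5 between -1.39 and -1.01, whereas the points of GLK2, CAB2R and CHLH fall on both sides of 0.

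Other genes of the same processes were taken from 7 lists of 84 loci in all, of which 83 were in the table and 75 were tested. The lists were written from general knowledge of rice loci, with earlier results of these data known in part. Of the 84 names, 25 were found in RefSeq on the same chromosome as the identifier gives, and only these are used below; the other loci are given by identifier, and their place in a list is not backed by an annotation. Over the 75 loci, 9 rose and 0 fell, and 66 were not called. At an unadjusted p under 0.05, 14 were higher and 8 lower. The share of all tested loci at that cutoff was not computed, so such counts, here and below, cannot be set against other loci. The calls numbered 0 without either WT library, 3 without emf2b GAGT, 5 with no filter on low counts and 2 with lowered emf2b counts. The shares called, 12% higher and 0% lower, stand beside 13.5% and 2.21% of all tested loci. Of the 22 tested loci with a RefSeq name, 1 rose (LHCB2, a share of 4.55%) and 0 fell. Their median log2 fold change was -0.17, with 9 above 0 and 13 below. Over all the lists, DESeq2 called 7 higher and 1 lower. The lower call was V2, named after its values were seen, a gene for a plastid guanylate kinase needed for greening of young leaves. It stood at 48.6 and 49.1 CPM in emf2b panicles and at 107.6 and 68.6 CPM in WT panicles (edgeR log2 fold change -0.89 ± 0.25 SE, adjusted p = 0.0505; DESeq2 adjusted p = 0.0116).

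**Figure D4:**
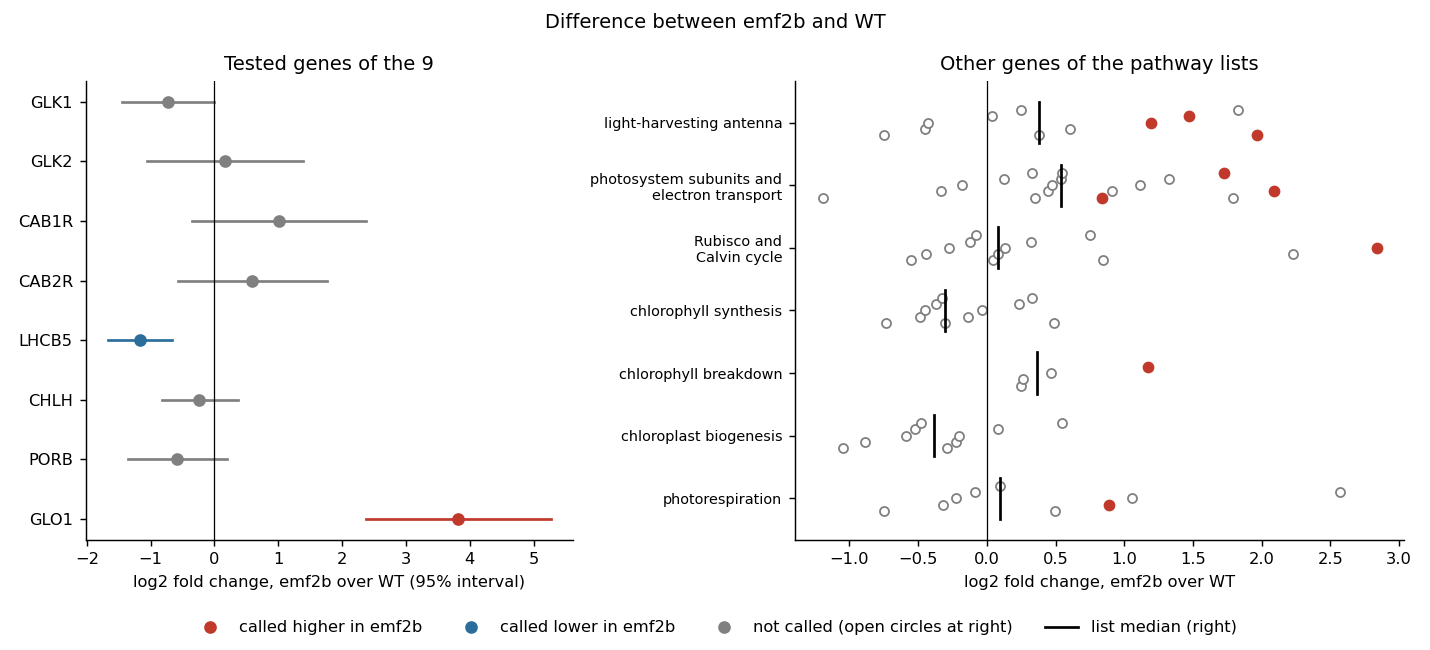
Log2 fold change of emf2b over WT (horizontal axes) for the 8 tested genes, with 95% intervals (left), and for the 75 tested loci of the 7 lists, 1 point per locus with the list median as a black bar (right). Red marks calls higher in emf2b, blue calls lower, and grey or open points loci that were not called; GLO1 at 3.82 and LHCB5 at -1.17 are the 2 calls on the left, and the 9 calls on the right are all higher in emf2b.

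In the light-harvesting antenna list, 3 of 11 tested loci rose, 0 fell and 8 did not pass (median log2 fold change 0.38). LHCB2, for another protein of the major antenna of photosystem II, rose to 9.12 and 9.22 CPM in emf2b, against 4.69 and 3.18 CPM in WT (1.19 ± 0.33 SE, edgeR adjusted p = 0.0477). That call is marginal and ended under 9 of the 12 alternative settings. LHCB3, of the same antenna, was at 0.232 and 1.18 CPM in emf2b panicles and at 1.34 and 0.686 CPM in WT panicles (-0.43 ± 0.74 SE, edgeR adjusted p = 0.755). Within the photosystem II antenna, LHCB5 and LHCB2 were thus called in opposite directions; the difference between the 2 genes was not itself tested. The other 2 loci that rose in this list were LOC_Os07g38960, at 65.5 and 33.6 CPM in emf2b and 15.8 and 19.2 CPM in WT, and LOC_Os02g52650, at 4.41 and 5.61 CPM in emf2b and 0.709 and 1.75 CPM in WT (edgeR adjusted p = 0.0244 and 0.0323). Without emf2b GAGT the log2 fold change of LOC_Os07g38960 was 0.85, against 1.47 with all libraries, and its call ended. The call of LOC_Os02g52650 ended without emf2b TTAG (1.81, against 1.96).

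In the list of photosystem subunits and electron transport, 3 of 17 tested loci rose, 0 fell and 14 did not pass (median 0.54). LOC_Os12g23200 was at 38.0 and 26.6 CPM in emf2b panicles and at 9.26 and 9.82 CPM in WT panicles (log2 fold change 1.73 ± 0.25 SE, edgeR adjusted p = 0.00967). LOC_Os04g33830 was at 69.1 and 22.3 CPM in emf2b panicles and at 8.39 and 12.7 CPM in WT panicles (2.09 ± 0.51 SE, edgeR adjusted p = 0.0317), and its log2 fold change was 0.98 without emf2b GAGT, no longer past the test. LOC_Os03g56670 was at 31.9 and 30.5 CPM in emf2b panicles and at 15.8 and 18.4 CPM in WT panicles (0.84 ± 0.20 SE, edgeR adjusted p = 0.0308), a call that ended under 6 of 12 alternative settings, among them DESeq2 (adjusted p = 0.0522) and the removal of any 1 library. Both emf2b libraries lay above both WT libraries for 11 of the 17 loci, against 32.5% of all tested loci. They lay below both for 2, against 24.6%. No other list had as many above. Over the 75 tested loci of all lists, 32 lay above and 17 below, and over the 22 with a RefSeq name, 7 above and 7 below. Among genes with a RefSeq name, PSAH, for a photosystem I subunit, had 1.79 ± 0.81 (SE; edgeR adjusted p = 0.196). PETC, for the Rieske iron-sulphur protein of the cytochrome complex, had 0.44 ± 0.48 (SE; edgeR adjusted p = 0.604), and FNR1, for ferredoxin-NADP reductase, had -0.33 ± 0.45 (SE; edgeR adjusted p = 0.683). The summed level of this list was 313 and 259 CPM in emf2b, against 166 and 190 CPM in WT.

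Chlorophyll synthesis, the list to which CHLH and PORB belong by function, had 0 calls among 11 tested loci with edgeR and also with DESeq2 (median log2 fold change -0.31). At an unadjusted p under 0.05, 0 were higher and 2 lower, without a share of all tested loci to set beside them. The 2 were CHLG, for chlorophyll synthase, and CHLP, for geranylgeranyl reductase, which makes the phytol tail. CHLG was at 43.1 and 39.1 CPM in emf2b panicles and at 55.7 and 57.0 CPM in WT panicles (-0.49 ± 0.18 SE, edgeR adjusted p = 0.117). CHLP was at 5.10 and 5.26 CPM in emf2b panicles and at 9.14 and 7.73 CPM in WT panicles (-0.74 ± 0.29 SE, edgeR adjusted p = 0.146). CHLI and CHLD encode the partners of CHLH in magnesium chelatase. They had -0.45 ± 0.21 and -0.31 ± 0.24 (SE; edgeR adjusted p = 0.220 and 0.457), beside -0.23 for CHLH itself. PORA, the paralog of PORB, had 7.35 and 7.38 CPM in emf2b and 3.47 and 6.73 CPM in WT (0.49 ± 0.37 SE, edgeR adjusted p = 0.444), while PORB had -0.58. LOC_Os11g16550 and LOC_Os10g35840, named by their mean CPM over the 4 libraries, had -0.03 ± 0.19 and 0.33 ± 0.24 (SE; edgeR adjusted p = 0.937 and 0.420).

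In the chloroplast biogenesis list, 0 of 10 tested loci were called with edgeR, and the median log2 fold change was -0.38. At an unadjusted p under 0.05, 3 were lower and 0 higher, again without a share of all tested loci to set beside them. V2, given above, was the 1 call made by DESeq2 there. LOC_Os06g44230 had -0.22 ± 0.20 (SE; edgeR adjusted p = 0.531). LOC_Os12g17910 was at 36.9 and 56.4 CPM in emf2b panicles and at 146.2 and 40.2 CPM in WT panicles, where ACCC alone was high (-1.05 ± 0.53 SE, edgeR adjusted p = 0.251; 0.16 without WT ACCC). In the chlorophyll breakdown list, 1 of 4 tested loci rose and 0 fell (median 0.36). That locus, LOC_Os03g05310, was at 17.4 and 14.1 CPM in emf2b panicles and at 6.34 and 7.26 CPM in WT panicles (edgeR adjusted p = 0.0238), a call that ended without emf2b GAGT (log2 fold change 0.95, against 1.17) and with no filter on low counts. NYC1, for a chlorophyll b reductase, was at 71.2 and 53.0 CPM in emf2b panicles and at 38.4 and 49.4 CPM in WT panicles (0.47 ± 0.23 SE, edgeR adjusted p = 0.226).

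Among 13 tested loci of Rubisco and the Calvin cycle, 1 rose and 0 fell (median 0.08). It was LOC_Os12g19381, with 32 and 21 reads in emf2b and 5 and 9 in WT panicles (log2 fold change 2.84 ± 0.66 SE, edgeR adjusted p = 0.0283). Without emf2b GAGT its change was 2.23 and the call ended, and it had too few reads to be tested at a minimum count of 30 or with lowered emf2b counts. LOC_Os06g04270 was at 66.6 and 73.4 CPM in emf2b panicles and at 87.7 and 98.2 CPM in WT panicles (-0.44 ± 0.17 SE, edgeR adjusted p = 0.132). RCA, for Rubisco activase, had 15 and 10 reads in emf2b and 1 and 9 in WT (2.23 ± 0.85 SE, edgeR adjusted p = 0.131). LOC_Os12g19381 and RCA lie among the loci with a WT mean under 1 CPM, described with GLO1, and they too passed the filter through their emf2b libraries. In the photorespiration list, which holds GLO3, GLO4 and GLO5, 1 of 9 tested loci rose and 0 fell (median 0.10). LOC_Os02g01150 was at 34.9 and 48.8 CPM in emf2b panicles and at 22.8 and 21.2 CPM in WT panicles (0.89 ± 0.22 SE, edgeR adjusted p = 0.0334), and it was not called without emf2b TTAG (0.66) or with no filter on low counts.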

How the data were processed

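Per the labels' protocols, extraction of total RNA included a DNase step, cDNA was made from 10 ng with a NuGEN Ovation kit, and an Illumina Genome Analyzer IIx gave single reads of 40 cycles. The extraction text of every sample speaks of wild-type tissue, also for emf2b; groups were taken from titles and genotype. The deposited file holds raw read counts per gene model, as the authors deposited them. The submitters' processing notes name TopHat2 2.0.5 and DESeq 1.10.1. How reads were counted, on which genome build and annotation, and whether by strand, the sources used here do not give, so reads of overlapping, antisense or near-identical genes cannot be told apart. Columns name a genotype and a barcode without a replicate number, so each was assigned to a group only.

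Low loci were removed by edgeR 4.0.16 in R 4.3.3 (filterByExpr with a count of at least 10 and a total of at least 15), libraries were scaled by TMM, and loci were tested with the quasi-likelihood F test with bias-adjusted dispersions (a two-sided test with genotype alone in the model and Benjamini-Hochberg adjustment over 22615 loci at 0.05). CPM uses the library total alone. Standard errors are the absolute log2 fold change over the square root of F. Ratio and share intervals are exact (Clopper-Pearson for shares, SciPy 1.17.1), at 95%, and they and the floor of 3 reads cover counting error only. DESeq2 1.42.0 was an alternative. On simulated counts for 22615 loci, the test recovered 7 of 50 loci at a 2-fold change, 36 of 50 at 4-fold, 39 of 50 at 8-fold and 50 of 50 at 16-fold, with 8.33% of calls false. Only these loci were changed, up or down at random, whereas 3556 loci were called in the data, mostly higher in emf2b. The adjusted threshold depends on the number of changed loci, so these rates do not carry over to the data.

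The 9 genes and the lists were chosen with earlier results of these data known. All 9 were to be named, and from each list every call (at most 6), or else the loci of highest mean CPM up to 2; others are named for their reference-backed names. Names were looked up in the RefSeq table of assembly ASM3414082v1, which is not the files' build, so its coordinates were used for gene order only. On the chromosome of the identifier, 7 of the 9 names and 25 of the 84 list names occurred, and 4 of the 84 occurred on another. Gene order was compared for 36 names with a single position, markers included. All 82 pairs that shared a chromosome had the same order in both. LHCB5 and PsbS were not found and keep the names they were chosen under. No sequences or gene lengths of a matching build were used here.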

Additional observations from a re-analysis of the deposited data

How the results depend on the processing

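GLO1 was called higher and LHCB5 lower under RLE factors, library totals alone, no low-count filter, a minimum count of 30, robust or legacy dispersions and DESeq2. Lowering emf2b counts by the 99th percentile at loci with no WT read, an alternative that, like legacy dispersions, was chosen after seeing the data, left 1 of the 9 genes called higher, 0 lower (1 before) and 2 list loci higher. With 1 library left out, the counts ran from 0 to 1 higher and 0 to 1 lower among the 9 genes, and from 0 to 7 higher and 0 to 0 lower among list loci; leaving out either WT library ended every one of these calls. In such fits the lone library is assumed to vary like the other genotype. The list loci gave 9 higher calls in all, 5 with no filter, and 1 lower call (V2) under RLE factors, no filter, robust dispersions and DESeq2. The log2 fold changes of the 8 tested genes ran from -0.9999 to -0.42 (GLK1), -0.38 to 1.07 (GLK2, -0.29 with lowered counts), 0.06 to 1.93 (CAB1R), -0.35 to 1.09 (CAB2R), -1.39 to -1.005 (LHCB5), -0.49 to 0.0577 (CHLH), -0.94 to -0.16 (PORB) and 3.08 to 4.73 (GLO1). Among list loci named by the rule, none of them called, LOC_Os11g16550 had -0.03 in the reported fit, but 0.0053 with library totals, 0.0375 at a minimum count of 30 and 0.1533 with lowered counts, and it ran from -0.2176 to 0.1469 with 1 library left out. LOC_Os10g35840 had 0.33 and ran from -0.0091 to 0.5859, LOC_Os12g17910 had -1.05 and ran from -1.7141 to 0.1644, and GLO5 had -0.09 but 0.0546 with lowered counts. The cause of these changes was not tested. No paired analysis was possible because the columns carry no replicate numbers. Depth limits PsbS, which had at most 3 reads in a library.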
